A study of Homo sapiens with 20 samples.

Results

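The genes described here were 10 transcripts of the ATF4 stress response and of serine synthesis, *ATF4*, *ATF3*, *DDIT3*, *DDIT4*, *TRIB3*, *CHAC1*, *SESN2*, *ASNS*, *PHGDH* and *PSAT1*, chosen by gene name out of 60719 listed genes. All 10 passed the filter on low counts that left 16327 genes for testing. mRNA was sequenced from 20 libraries of 2 human T lymphoblast lines, 10 libraries per line. WT cells were Jurkat, an established T cell leukemia line, and CD47- cells were JinB8, a somatic mutant line derived from Jurkat and deficient in the surface receptor CD47. In each line the treatments were plates coated with antibodies to CD3 and CD28 (CD3+CD28), the addition of thrombospondin-1, a ligand of CD47 (TSP1), or both (CD3+CD28+TSP1), and each was sampled once after 1, 3 and 6 h. A single further library per line was left untreated and sampled after 1 h. All cells were in a serum-free medium that contains hydrocortisone, insulin, transferrin and selenite. Untreated cells were not sampled later, and a change with time under treatment cannot be told apart from one with time in that medium. Each combination of line, treatment and time was a single library, and each line is 1 line, so that what differs between the lines cannot be told apart from other differences between a parent line and its mutant. The labels do not say that libraries came from separate cultures, and the p-values therefore measure the spread between these libraries.

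Library totals ran from 16107900 to 31737600 counts. *CD47* itself ran from 253 to 372 CPM (counts scaled by the size and composition of the library) in WT and from 124 to 165 CPM in CD47- libraries, a log2 fold change of -1.10 with an adjusted p of 1.05e-10. All 8 T cell markers examined were above 1 CPM in all 20 libraries. Of 4 B cell markers, 3 were below 1 CPM throughout, and *CD79A* was at 33.9 to 53.9 CPM in WT and 4.15 to 9.97 CPM in CD47- libraries, so that the sum of all 4 was 34.1 to 54.2 and 4.36 to 10.4 CPM, while the sum of 4 fibroblast markers was 1.89 to 6.69 and 7.70 to 12.3 CPM. Their part in the results between the lines was not tested. The CD47- library given CD3+CD28+TSP1 for 3 h stood apart from the rest, with the lowest total and a median distance of 0.446 on the log2 scale from the other libraries of its line and time against 0.197 to 0.339 in the other 19, and results that turn on it are given with and without it. Total mRNA per cell was not measured, so less RNA of a gene per cell and fewer cells with that RNA cannot be told apart in these bulk samples.

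ATF4 is a transcription factor whose mRNA is translated preferentially when kinases that sense amino acid shortage, misfolded protein, heme shortage or viral RNA phosphorylate the initiation factor eIF2. It turns on genes for amino acid synthesis and import, and also genes that limit growth or promote death when stress persists. In leukemic T cells this program is known for supplying asparagine and serine to dividing cells. Because ATF4 is regulated in large part by translation, its mRNA level does not give the amount of the protein.

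ATF4 binds, often as a dimer with a C/EBP protein, to an element whose core reads TGATGNAA. That motif was searched on both strands from 1000 bases before to 50 bases after each RefSeq start site in GRCh38, since the genes are grouped here by this factor. It was found at 11 places in 8 of the 10 genes, whereas 15.6% of 27305 genes and 13.4% of 35116 start sites hold it. A match is a run of letters and was not measured as a binding site. Each site is given here with 11 bases on either side, 5′ to 3′ on the strand of its gene, and the motif is in capitals. Sites that read TTGCATCA or TTTCATCA match on the opposite strand.
ATF3, chr1:212565205-212565234, plus strand, upstream of the annotated gene: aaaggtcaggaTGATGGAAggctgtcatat
DDIT3, chr12:57520802-57520831, minus strand, in an intron of *DDIT3* and of *MBD6*: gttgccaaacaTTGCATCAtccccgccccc
DDIT4, chr10:72272967-72272996, plus strand, upstream of *DDIT4* in an exon of ENSG00000289506: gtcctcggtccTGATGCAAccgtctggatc
TRIB3, chr20:380881-380910, plus strand, in an annotated exon of *TRIB3*: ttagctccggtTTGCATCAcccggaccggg
CHAC1, chr15:40953251-40953280, plus strand, in an annotated exon of *CHAC1*: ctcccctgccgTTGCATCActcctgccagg
SESN2, chr1:28259211-28259240, plus strand, upstream of the gene: gtgaagtccctTTTCATCAcgcaaccctaa
ASNS, chr7:97872458-97872487, minus strand, in an annotated exon of *ASNS*: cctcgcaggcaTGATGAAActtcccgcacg
PHGDH, chr1:119710969-119710998, plus strand, in an intron of *PHGDH*: cataattctcaTTGCATCActaatttgaaa
The 30 bases printed for *TRIB3* occur 3 times in its window, each copy 33 bases from the next. *CHAC1*, *DDIT3*, *TRIB3* and *PHGDH* carry the same 8 letters, TTGCATCA, and *DDIT4* carries their reverse complement, TGATGCAA. *ASNS* has a second match at 886 bases before its first start site, against 68 bases for the one printed. No match was found in these windows of *ATF4* (gene at chr22:39519695-39522683) and *PSAT1* (gene at chr9:78297125-78330093).

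**Figure D1:**
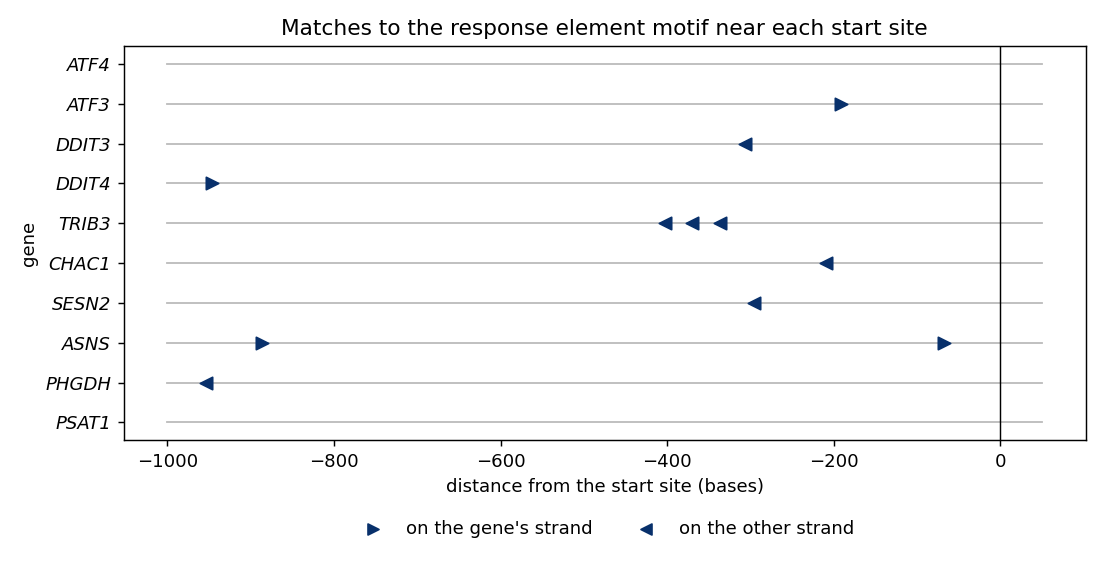
Position of each motif match (arrowheads, pointing right where the match lies on the strand of the gene) against distance from the RefSeq start site in bases. The 3 matches of *TRIB3* lie 33 bases apart, and the match of *ASNS* nearest to a start site begins at -68.

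Levels were compared between genes as TPM, a share of transcripts that allows for transcript length. *ATF4* had the highest level of the 10 in both lines, at 322 ± 83.6 TPM in WT and 407 ± 38.2 TPM in CD47- cells (SD, n = 10 each). *SESN2*, a sensor of leucine that restrains the growth kinase complex mTORC1, had the lowest, at 3.29 ± 1.32 and 5.61 ± 1.16 TPM. *ATF4* was first and *SESN2* last by mean at each of the 3 times in both lines. These SDs pool the 3 times and hold the change with time, and the order of the other genes moved with it. At 1 h in WT *PHGDH* (74.6 ± 8.29 TPM, n = 4), *PSAT1* (68.3 ± 11.1) and *DDIT4* (67.9 ± 10.7) followed *ATF4* and overlapped, and at 6 h the order was *DDIT4* (57.6 ± 1.72 TPM, n = 3), *PHGDH* (41.9 ± 1.65), *DDIT3* (37.2 ± 2.47) and *PSAT1* (29.3 ± 1.62). *ATF3* stood above *ASNS* and *TRIB3* in WT at 1 h, at 29.8 ± 1.76 TPM against 20.9 ± 2.58 and 18.6 ± 2.65, and below both at 6 h, at 3.30 ± 0.18 TPM against 7.06 ± 0.32 and 9.92 ± 0.43. In CD47- cells *PSAT1* was second at 6 h, at 110.2 ± 7.48 TPM, followed by *PHGDH* at 81.9 ± 6.73. *TRIB3* stood above *DDIT3* and *ASNS* in CD47- cells at 1 h, at 80.9 ± 7.19 TPM against 58.2 ± 2.65 and 38.2 ± 2.48, and overlapped *ASNS* at 6 h, at 23.4 ± 2.88 against 22.1 ± 0.85 TPM.

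**Figure D2:**
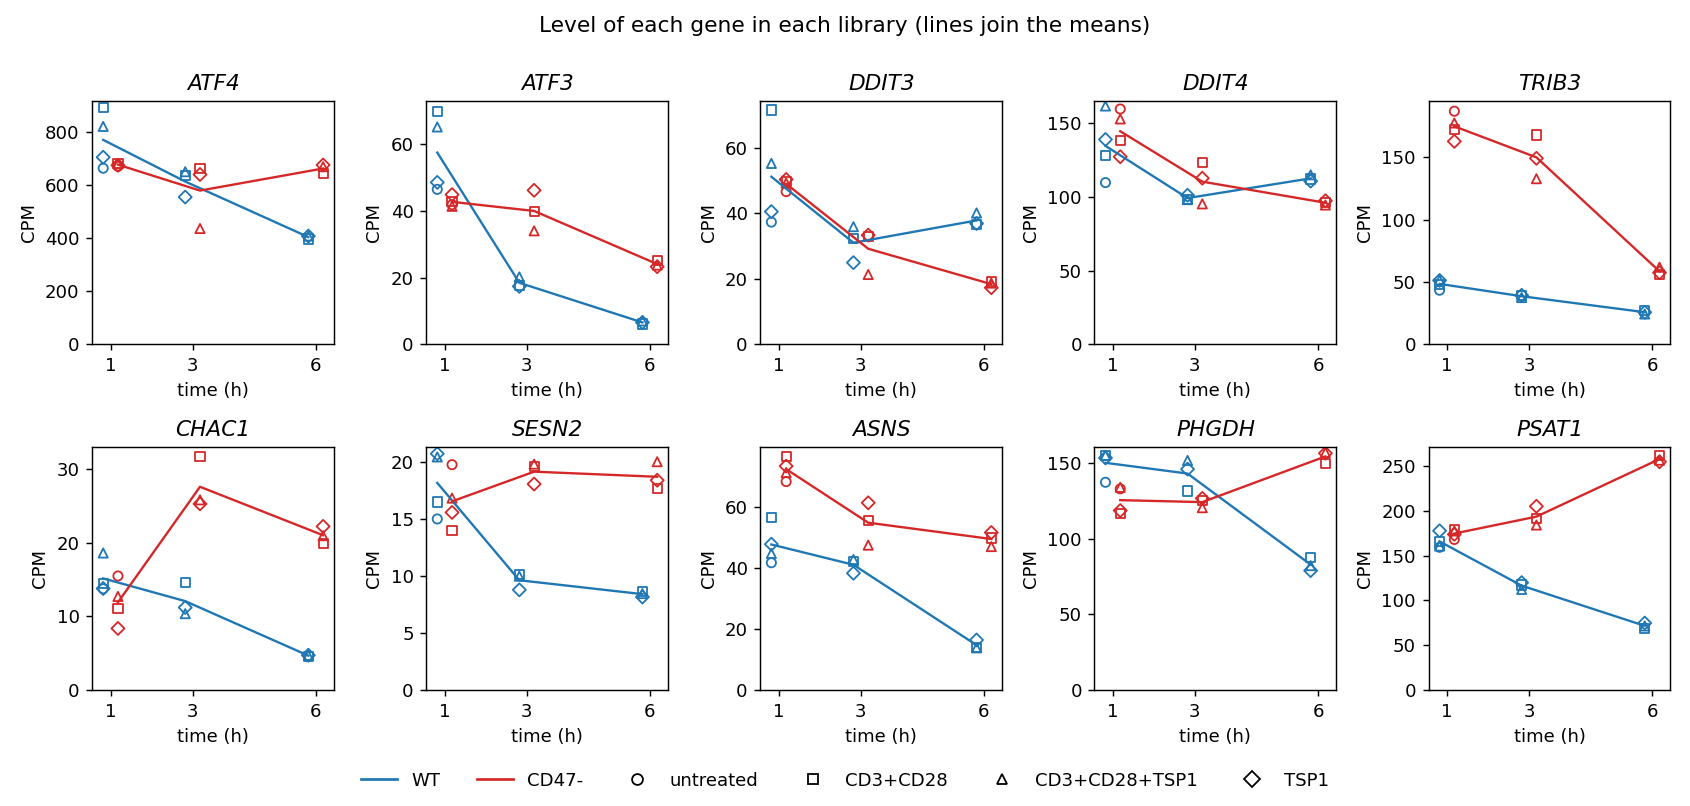
CPM of each gene (y axis, from 0) against time in hours (x axis) in all 20 libraries, with WT in blue, CD47- in red, the treatment as the marker and lines through the means at each time. WT levels of *ATF3*, *ASNS*, *CHAC1* and *PSAT1* are lowest at 6 h, *PSAT1* in CD47- cells is highest at 6 h, and *TRIB3* is higher in CD47- cells throughout.

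The first comparison asked how the lines differed over all treatments and times. In the edgeR quasi-likelihood test on line alone, 5 of the 10 genes were called at an adjusted p under 0.05, all higher in CD47- cells. Of the 16327 tested genes, 40.4% were called and 19.8% were called higher. *TRIB3*, a pseudokinase that binds ATF4 and limits its activity, differed most, with a difference of 1.77 on the log2 scale (SE 0.23, adjusted p = 1.96e-06) and higher CPM in CD47- cells in 10 of 10 pairs matched for treatment and time. *CHAC1*, which degrades glutathione, was higher by 0.81 (SE 0.27, adjusted p = 0.0217) in 7 of 10 pairs. *ASNS*, asparagine synthetase, was higher by 0.75 (SE 0.23, adjusted p = 0.0105) in 10 of 10 pairs, and *PSAT1*, the transaminase of the second step of serine synthesis, was higher by 0.74 (SE 0.17, adjusted p = 0.00126) in 9 of 10 pairs. *SESN2* was higher by 0.50 (SE 0.17, adjusted p = 0.0231) in 7 of 10 pairs. The median over the 10 genes was 0.38 against -0.0066 over all genes tested. For *ATF3*, *ATF4*, *DDIT3*, *DDIT4* and *PHGDH* the log2 fold changes lay between -0.28 and 0.25 with adjusted p-values from 0.338 to 0.867. With matched pairs as a replicate block *ATF3* was also called, at 0.69 with an adjusted p of 0.0483.

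The ranges of only 1 of the 10 genes, *TRIB3*, did not overlap between the lines over all times, against 11.5% of genes tested. The WT libraries ran from 24.4 to 51.5 CPM with a median of 39.2, and the CD47- libraries from 56.2 to 187 CPM with a median of 156. The line comparison averaged over times at which the difference was not the same for most of these genes, and it is given by time next.

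At 1 h the 2 lines differed in both directions. Here and in all comparisons at or between times, the fitted differences cover the 3 treatments sampled at every time, and the untreated libraries, which have a term of their own, do not enter them. The test called 6 of the 10 genes, 2 higher and 4 lower in CD47- cells, where 43% of all genes were called, and 4 of the 10 did not overlap between the lines against 45.2% of all genes. *TRIB3* was at 43.4, 47.9, 51.5 and 51.3 CPM in WT libraries (untreated, CD3+CD28, CD3+CD28+TSP1 and TSP1) and at 187, 172, 178 and 163 CPM in CD47- libraries. Each CD47- library was above every WT library, and over the 3 treatments the difference was 1.77 on the log2 scale (SE 0.083, adjusted p = 1.45e-09). *ASNS* was at 41.8, 56.6, 44.8 and 47.8 CPM in WT and at 68.4, 76.7, 71.4 and 73.5 CPM in CD47- cells in the same order, again without overlap, with a difference over the 3 treatments of 0.57 on the log2 scale (SE 0.093, adjusted p = 0.000194).

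Over the 3 treatments the genes lower in CD47- cells at 1 h were *ATF3* (-0.50, SE 0.11, adjusted p = 0.00169), *CHAC1* (-0.55, SE 0.16, adjusted p = 0.0135), *SESN2* (-0.31, SE 0.10, adjusted p = 0.0217) and *PHGDH* (-0.33, SE 0.071, adjusted p = 0.00180). ATF3 is a stress-induced transcription factor related to ATF4, and its mRNA was at 46.5, 69.7, 65.2 and 48.5 CPM in WT against 41.4 to 44.9 CPM in CD47- libraries. Its log2 difference was -0.70 in the CD3+CD28 pair and -0.65 in the CD3+CD28+TSP1 pair, but -0.11 with TSP1 and -0.15 untreated. *PHGDH*, the dehydrogenase of the first step of serine synthesis, was at 137, 155, 155 and 154 CPM in WT and at 133, 117, 134 and 119 CPM in CD47- cells, with the untreated WT library next to the CD47- range. *CHAC1* and *SESN2* overlapped between the lines, and in the untreated pair both went the other way, at 13.7 CPM in WT and 15.5 in CD47- cells for *CHAC1* and at 15.001 and 19.763 CPM for *SESN2*. The mean log2 difference over all 4 pairs was -0.36 for *CHAC1* and -0.13 for *SESN2*, against -0.53 and -0.30 over the 3 treated pairs. Mean TPM of all 4 libraries put *PHGDH* and *SESN2* the other way, with overlapping spreads. *PHGDH* was at 74.6 ± 8.29 TPM in WT and 84.1 ± 5.81 in CD47- cells, and *SESN2* at 4.66 ± 0.99 and 5.18 ± 0.94. *ATF3* (29.8 and 27.5 TPM) and *CHAC1* (8.93 and 8.54 TPM) stayed lower in CD47- cells. The signs of *PHGDH* and *SESN2* at 1 h thus depend on the measure. *ATF4* was not called (-0.24, adjusted p = 0.107) and was called without the low-count filter (-0.24, adjusted p = 0.0227) and without the CD47- library of 3 h that stood apart (-0.23, adjusted p = 0.0104). The call of *SESN2* was lost with matched pairs as a replicate block, which also brings in the untreated pair (-0.13, adjusted p = 0.368), and was kept with the block over the treated libraries alone (-0.31, adjusted p = 0.0114). It was also lost without the filter (-0.32, adjusted p = 0.0693), and without the WT CD3+CD28+TSP1 library (-0.30, adjusted p = 0.0723), the WT TSP1 library (-0.22, adjusted p = 0.147) or the CD47- CD3+CD28 library (-0.26, adjusted p = 0.124) of that time. That of *CHAC1* was lost without the WT CD3+CD28+TSP1 library (-0.37, adjusted p = 0.115), the CD47- CD3+CD28 library (-0.54, adjusted p = 0.0527) or the CD47- TSP1 library (-0.40, adjusted p = 0.0942).

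At 3 h, 7 of the 10 genes were called, 6 higher and 1 lower in CD47- cells, where 46.5% of all genes were called. The same number, 7 of 10, did not overlap, against 47.8% of all genes. *ATF3* was at 17.8, 20.2 and 17.4 CPM in WT libraries (CD3+CD28, CD3+CD28+TSP1 and TSP1) and at 39.7, 34.0 and 46.2 CPM in CD47- libraries. The lowest CD47- library was thus above the highest WT library, and the difference on the log2 scale was 1.11 (SE 0.11, adjusted p = 2.18e-06). *CHAC1* was at 14.6, 10.4 and 11.2 CPM in WT and at 31.7, 25.8 and 25.3 CPM in CD47- cells, with a difference of 1.20 on the log2 scale (SE 0.16, adjusted p = 3.38e-05). *SESN2* (0.99, SE 0.10), *PSAT1* (0.73, SE 0.058), *ASNS* (0.41, SE 0.094) and *TRIB3* (1.96, SE 0.084) were also higher, with adjusted p-values from 7.10e-10 to 0.00258. *PHGDH* was lower by a small amount (-0.20, SE 0.071, adjusted p = 0.0301). That call was lost with the replicate block (adjusted p = 0.0717, but 0.0431 over the treated libraries alone), in limma (adjusted p = 0.105), without the filter (adjusted p = 0.153) and without the CD47- library that stood apart (-0.12, adjusted p = 0.185), and leaving out 6 other libraries in turn also took it past 0.05, with adjusted p-values up to 0.212. *DDIT4*, an inhibitor of mTORC1 that stress and glucocorticoids induce, was not called at 3 h (0.15, adjusted p = 0.207) and was called without the library that stood apart (0.30, adjusted p = 0.00542).

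At 6 h the lines were furthest apart, with 9 of the 10 genes called, 8 higher and 1 lower in CD47- cells, where 47.2% of all genes were called. All 10 genes were without overlap between the lines, against 64.9% of all genes with the same 3 libraries per line. *PSAT1* was at 68.6, 71.4 and 74.6 CPM in WT libraries given CD3+CD28, CD3+CD28+TSP1 and TSP1, and at 262, 256 and 255 CPM in CD47- libraries. The libraries of a line lay close together, and the difference on the log2 scale was 1.85 (SE 0.060, adjusted p = 3.90e-11), a fold of 3.60. *ASNS* was at 13.9, 13.8 and 16.4 CPM in WT and at 49.9, 47.1 and 51.7 CPM in CD47- cells, with a difference of 1.75 on the log2 scale (SE 0.099, adjusted p = 6.96e-09). *PHGDH*, which by CPM had been lower in CD47- cells at 1 h, was now higher by 0.90 (SE 0.071, adjusted p = 2.05e-07). It was at 87.6, 82.3 and 79.0 CPM in WT and at 150, 157 and 157 CPM in CD47- cells.

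*CHAC1* had the largest log2 fold change of the 10 genes at 6 h, 2.17 (SE 0.17, adjusted p = 1.92e-07), with WT libraries at 4.57, 4.70 and 4.72 CPM and CD47- libraries at 19.9, 21.0 and 22.2 CPM. *ATF3* was at 6.11, 7.05 and 6.59 CPM in WT and at 25.2, 23.8 and 23.3 CPM in CD47- cells, a difference of 1.87 on the log2 scale (SE 0.12, adjusted p = 2.41e-08). *SESN2* was at 8.61, 8.45 and 8.15 CPM against 17.7, 20.02 and 18.4 CPM (1.15, SE 0.10, adjusted p = 7.96e-07). In these 3 genes each CD47- library was more than 2 times the highest WT library. *TRIB3* was at 27.4, 24.4 and 25.7 CPM in WT and 56.2, 61.9 and 57.5 CPM in CD47- cells, where its fold of 2.27 (adjusted p = 7.39e-08) was smaller than those of 3.40 at 1 h and 3.88 at 3 h. *ATF4* was at 397, 408 and 408 CPM against 642, 669 and 675 CPM, a difference of 0.71 on the log2 scale (SE 0.11, adjusted p = 0.000157).

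*DDIT3*, which encodes CHOP, a transcription factor of the death arm of the stress response, moved the other way. It was at 36.4, 40.1 and 36.8 CPM in WT and at 19.1, 18.7 and 17.3 CPM in CD47- libraries at 6 h, with a difference of -1.04 on the log2 scale (SE 0.15, adjusted p = 7.72e-05). *DDIT4* was at 112, 115 and 111 CPM against 96.2, 94.5 and 97.4 CPM, which did not overlap and missed the threshold (-0.23, SE 0.094, adjusted p = 0.0594). It was called with the replicate block over the treated libraries alone (-0.23, adjusted p = 0.0311), without the CD47- CD3+CD28+TSP1 library of 1 h (-0.23, adjusted p = 0.0275) and without that of 3 h (-0.22, adjusted p = 0.0135). *DDIT3* shares its locus with *MARS1* and *MBD6* on the opposite strand. *MARS1* had 571% of the counts of *DDIT3* summed over the 20 libraries, the strand setting of the counting is not given in the sources used here, and the part of shared reads in these values was not tested.

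**Figure D3:**
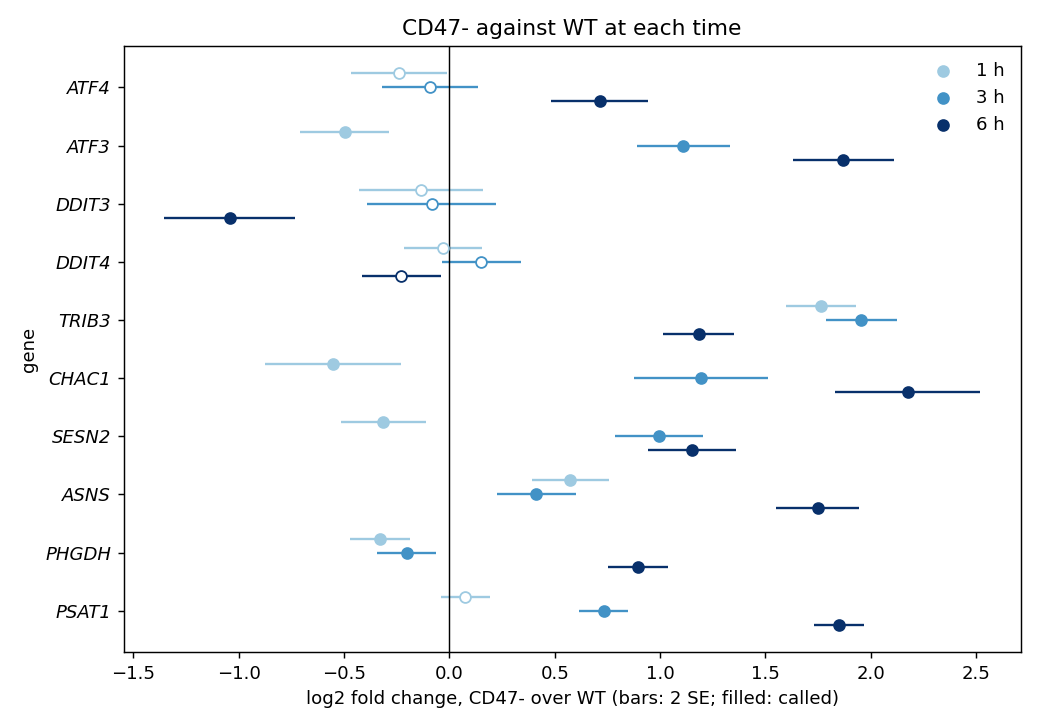
Log2 fold change of CD47- over WT (x axis) for each gene at 1, 3 and 6 h, with bars of 2 SE and filled points where the adjusted p was under 0.05. *ATF3*, *CHAC1*, *SESN2* and *PHGDH* cross from below 0 at 1 h to above 0 at 6 h, and *DDIT3* lies below 0 at 6 h.

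The next comparison asked what each line did over time. The means given for 1 h include the untreated library, and the fitted changes do not. In WT cells, 8 of the 10 genes fell from 1 to 3 h, where 34.3% of all genes were called and 17.4% fell. From 1 to 6 h 10 of 10 fell, where 50.5% of all genes were called and 24.8% fell. The median log2 fold change at 6 h was -1.09 over the 10 genes and -0.0031 over all genes. *ATF3* fell by 3.20 on the log2 scale (SE 0.12, adjusted p = 7.83e-10), from a mean of 57.5 ± 11.7 CPM at 1 h (SD, n = 4) to 18.5 ± 1.54 at 3 h and 6.58 ± 0.47 at 6 h (n = 3 each). *ASNS* fell by 1.75 (SE 0.099, adjusted p = 1.22e-08) and *CHAC1* by 1.74 (SE 0.17, adjusted p = 1.82e-06). *PSAT1* fell by 1.23 (SE 0.059), *SESN2* by 1.19 (SE 0.10), *ATF4* by 0.99 (SE 0.12), *TRIB3* by 0.96 (SE 0.085) and *PHGDH* by 0.90 (SE 0.071), with adjusted p-values from 3.50e-09 to 8.10e-06. Both *DDIT* genes fell least, *DDIT3* by 0.53 (SE 0.15, adjusted p = 0.00894) and *DDIT4* by 0.34 (SE 0.094, adjusted p = 0.00763). Unlike the other 8, they had a lower mean at 3 h than at 6 h, 31.0 ± 5.58 against 37.8 ± 1.99 CPM for *DDIT3* and 99.2 ± 1.67 against 113 ± 2.18 CPM for *DDIT4*.

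The fall of *DDIT3* in WT by 6 h rested in part on the CD3+CD28 libraries, which at 1 h held its highest value of 71.5 CPM against 37.3 CPM untreated. Without that library it missed the threshold (-0.34, adjusted p = 0.0706), as it did without the CD3+CD28 library of 6 h (-0.40, adjusted p = 0.0731). Of the calls at 3 h in WT, *ATF4* (-0.39, adjusted p = 0.0165) was lost without either of the WT CD3+CD28 libraries of 1 h (-0.32, adjusted p = 0.0915) and 3 h (-0.39, adjusted p = 0.0613), or the WT TSP1 library of 3 h (-0.36, adjusted p = 0.0739). *ASNS* (-0.27, adjusted p = 0.0384) was lost without treatment terms, a fit that includes the untreated library (-0.22, adjusted p = 0.0907), and in 8 of the 20 fits that each left out a library, with log2 fold changes from -0.31 to -0.16 and adjusted p-values from 0.0503 to 0.262. *CHAC1* was not called at 3 h in WT (-0.37, adjusted p = 0.0897) and was called without the filter (adjusted p = 0.0249) and without the WT CD3+CD28 library of 3 h (-0.56, adjusted p = 0.0307). The means of *ASNS* were 41.1 ± 2.43 CPM at 3 h and 14.7 ± 1.46 CPM at 6 h.

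In CD47- cells the genes parted. From 1 to 3 h, 5 of 10 were called, 2 higher and 3 lower, where 38% of all genes were called. From 1 to 6 h, 9 of 10 were called, 4 higher and 5 lower, where 53% were called. The serine synthesis enzymes rose by 6 h, *PSAT1* by 0.54 (SE 0.058, adjusted p = 2.86e-06), from 175 ± 4.97 to 258 ± 3.78 CPM, and *PHGDH* by 0.33 (SE 0.071, adjusted p = 0.00132), from 126 ± 9.28 to 155 ± 4.08 CPM. In TPM *PSAT1* also rose, from 87.5 ± 2.29 to 110.2 ± 7.48, but *PHGDH* did not, at 84.1 ± 5.81 and 81.9 ± 6.73. *CHAC1* rose by 1.37 at 3 h (SE 0.16, adjusted p = 2.77e-05), from 11.9 ± 2.99 to 27.6 ± 3.56 CPM, and was still higher than at 1 h by 0.99 at 6 h (SE 0.16, adjusted p = 0.000140). *SESN2* was called higher at 3 h (0.31, adjusted p = 0.0267) and 6 h (0.27, adjusted p = 0.0339). Its call at 3 h was lost in limma (adjusted p = 0.0556), without the filter (adjusted p = 0.0929), without treatment terms (0.21, adjusted p = 0.165) and without the CD47- CD3+CD28 (0.25, adjusted p = 0.142) or CD3+CD28+TSP1 library of 1 h (0.33, adjusted p = 0.0558) or the CD3+CD28 library of 3 h (0.24, adjusted p = 0.139). That at 6 h was lost in DESeq2 (adjusted p = 0.0524), in limma (adjusted p = 0.0586), without the filter (adjusted p = 0.143), without treatment terms (0.18, adjusted p = 0.216), and without any 1 of the 6 treated CD47- libraries of 1 or 6 h, with log2 fold changes from 0.22 to 0.31 and adjusted p-values from 0.0572 to 0.165.

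Of the stress genes, 5 fell in CD47- cells by 6 h. *TRIB3* fell by 1.54 (SE 0.082, adjusted p = 7.07e-09), from 175 ± 10.1 CPM at 1 h to 150 ± 17.5 at 3 h and 58.6 ± 2.97 at 6 h, with most of the fall after 3 h. *DDIT3* fell by 1.44 (SE 0.15, adjusted p = 3.23e-06), *ATF3* by 0.83 (SE 0.11, adjusted p = 1.79e-05), *ASNS* by 0.58 (SE 0.092, adjusted p = 0.000123) and *DDIT4* by 0.54 (SE 0.094, adjusted p = 0.000256). *ATF4* was not called, at -0.03 with an interval of 2 SE from -0.26 to 0.19. Its CD47- libraries lay between 640 and 682 CPM at all times apart from the library that stood apart, at 436 CPM. Without that library *DDIT4* was no longer called at 3 h (-0.20, adjusted p = 0.0592, against -0.34 with it), nor was it in limma (-0.22, adjusted p = 0.0765) or without the CD47- CD3+CD28+TSP1 library of 1 h (-0.22, adjusted p = 0.0868). Some genes that were not called at 3 h were called elsewhere. *PSAT1* was called without the library that stood apart (0.18, adjusted p = 0.0221), in limma (0.26, adjusted p = 0.000821) and without treatment terms (0.15, adjusted p = 0.0414). *ATF4* was called lower without the filter (-0.24, adjusted p = 0.0259) and without the CD47- CD3+CD28 library of 3 h (-0.36, adjusted p = 0.0456), and *TRIB3* without treatment terms (-0.22, adjusted p = 0.0274) and without that library (-0.29, adjusted p = 0.0221). The counts at 6 h stayed at 4 higher and 5 lower without the library that stood apart.

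**Figure D4:**
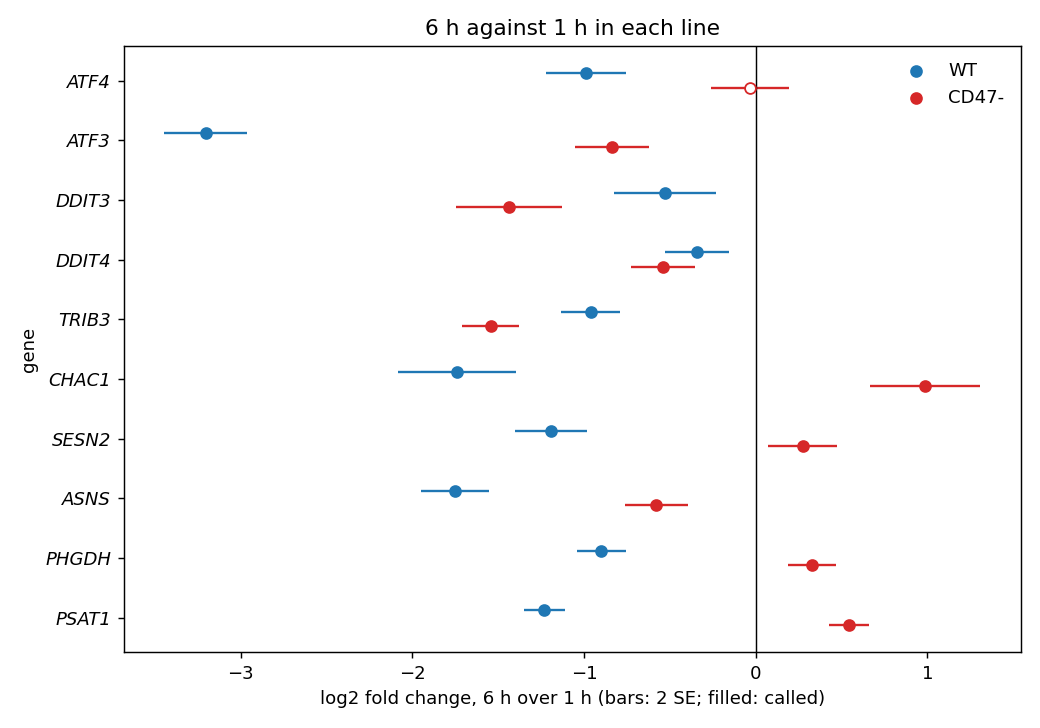
Log2 fold change of 6 h over 1 h (x axis) for each gene in WT (blue) and CD47- (red), with bars of 2 SE and filled points where the adjusted p was under 0.05. All 10 WT points lie below 0, while *CHAC1*, *SESN2*, *PHGDH* and *PSAT1* lie above 0 in CD47- cells.

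An interaction term asked whether the lines changed differently over time. From 1 to 3 h it called 4 of the 10 genes, all with the more positive change in CD47- cells. Of all genes, 4.28% were called and 2.02% had that direction. The 4 were *CHAC1* (1.75, SE 0.23, adjusted p = 0.00132), *ATF3* (1.61, SE 0.15, adjusted p = 0.000125), *SESN2* (1.31, SE 0.15, adjusted p = 0.000380) and *PSAT1* (0.66, SE 0.082, adjusted p = 0.000897). From 1 to 6 h it called 9 of the 10, where 16.6% of all genes were called. Of these, 7 changed more positively in CD47- cells, *CHAC1* (2.73), *ATF3* (2.37), *PSAT1* (1.77), *SESN2* (1.47), *PHGDH* (1.23), *ASNS* (1.17) and *ATF4* (0.95), with SEs from 0.082 to 0.24 and adjusted p-values from 5.30e-08 to 0.00146. *DDIT3* (-0.91, SE 0.21, adjusted p = 0.0110) and *TRIB3* (-0.58, SE 0.12, adjusted p = 0.00432) changed more negatively. *DDIT4* was not called (-0.20, SE 0.13, adjusted p = 0.344).

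The median interaction at 6 h over the 10 genes was 1.20 on the log2 scale, against -0.0021 over all genes tested. Without the CD47- library that stood apart the counts were 5 genes higher at 3 h, with *TRIB3* (0.32, adjusted p = 0.0371) added, and 7 higher and 2 lower at 6 h. The number of all genes called was less stable, at 1066 without that library against 698 with it at 3 h and 4273 against 2714 at 6 h. *DDIT3* missed the threshold at 6 h without the WT CD3+CD28+TSP1 library of 1 h (-0.80, adjusted p = 0.0516), the WT TSP1 library of 1 h (-0.74, adjusted p = 0.0509) or the CD47- TSP1 library of 6 h (-0.78, adjusted p = 0.0563).

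The treatments were compared within each line over the 3 times. None of the 10 was called by edgeR for CD3+CD28+TSP1 against TSP1 or against CD3+CD28, in either line. In WT, 0.0919% of all genes were called for CD3+CD28+TSP1 against TSP1, with 816 genes and 2 of the 10 at an unadjusted p under 0.05, namely *ATF3* (0.26, SE 0.11) and *DDIT3* (0.36, SE 0.15). DESeq2 called 54 genes there and limma 28, none of them among the 10. The addition of TSP1 to CD3+CD28 in WT called 0% of genes, with 366 at an unadjusted p under 0.05, 1 gene in DESeq2 and 0 in limma. In CD47- cells both comparisons called 0% of genes, also 0 in DESeq2 and limma, with 2636 and 1771 genes at an unadjusted p under 0.05. Across these comparisons the log2 fold changes of the 10 genes ran from -0.21 to 0.36, each from 3 libraries per arm, 1 at each time. The fit has no term for treatment by time, so a response at 1 h alone is averaged over the 3 times and adds to the spread. In WT at 1 h *ATF3* was at 69.7 and 65.2 CPM with CD3+CD28 and CD3+CD28+TSP1, against 46.5 untreated and 48.5 with TSP1. *ATF4* was at 892 and 821 against 663 and 705 CPM. A response at a single time was not tested.

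The untreated libraries existed at 1 h only, 1 per line, and are described without a test. In WT the untreated library was the lowest of the 4 for all 10 genes, against 27.3% of all genes tested, with *ATF4* at 663 CPM against 705 to 892 CPM in the other 3. For *DDIT3* it was at 37.3 CPM, with TSP1 at 40.5, CD3+CD28+TSP1 at 55.2 and CD3+CD28 at 71.5 CPM. In CD47- cells the untreated library was the lowest for *ATF4*, *DDIT3*, *ASNS* and *PSAT1* and the highest for *DDIT4*, *TRIB3*, *CHAC1* and *SESN2*, where it was the lowest for 31% and the highest for 25.3% of all genes. The SD of the 4 values at 1 h was smaller in CD47- cells for 7 of the 10 genes, with *ATF4* at 670 to 682 CPM and *DDIT3* at 46.6 to 50.3 CPM. It was larger in CD47- than in WT cells for the other 3, *TRIB3* (10.1 against 3.76 CPM), *CHAC1* (2.99 against 2.33 CPM) and *PHGDH* (9.28 against 8.62 CPM).

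Other genes of the pathway were described from 5 lists. Over all genes tested, 25.7% rose and 24.8% fell in WT from 1 to 6 h, 26% rose and 27% fell in CD47- cells, 19.8% were higher and 20.6% lower in CD47- cells over all times, and the interaction at 6 h called 6.46% with the more positive and 10.2% with the more negative change in CD47- cells. Both directions together came to 50.5%, 53%, 40.4% and 16.6%. Of 22 further ATF4 targets, 20 were tested, and *GDF15* and *NUPR1* did not pass the filter. From 1 to 6 h in WT, 3 of the 20 rose and 15 fell, with a median log2 fold change of -1.06, and in CD47- cells 11 rose and 5 fell, with a median of 0.46. The interaction called 14 of the 20 with the more positive change in CD47- cells and 2 with the more negative, with a median of 1.19. *SLC7A11*, the cystine importer, fell by 1.59 in WT (SE 0.088, adjusted p = 9.79e-09), whereas CD47- cells had a rise of 1.70 (SE 0.085, adjusted p = 4.83e-09). *WARS1*, tryptophanyl-tRNA synthetase, rose alike, by 1.39 in WT (SE 0.065) and 1.40 in CD47- cells (SE 0.064), and *KLHL24* fell in both (-1.75 and -2.36). Over all times, 11 of the 20 were higher in CD47- cells and 0 lower, led by *ATF5* (1.38, SE 0.13), *PCK2* (1.64, SE 0.28) and *PYCR1* (0.90, SE 0.20).

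Among 10 further enzymes of serine and one-carbon metabolism, 3 rose and 3 fell in WT by 6 h, and 5 rose and 3 fell in CD47- cells, where 50.5% and 53% of all genes were called. The 6 called in WT are a share near that of all genes. *MTHFD2*, the mitochondrial folate enzyme that ATF4 is known to induce, fell by 1.52 in WT (SE 0.086, adjusted p = 1.21e-08) and *SHMT2*, which splits serine into glycine and a one-carbon unit, by 0.70 (SE 0.084, adjusted p = 1.03e-05). In CD47- cells *PSPH*, the phosphatase of the last step of serine synthesis, rose by 1.25 (SE 0.12, adjusted p = 8.06e-07) and *MTHFD1L* by 0.91 (SE 0.081, adjusted p = 5.43e-07). *TYMS*, thymidylate synthase, fell in both lines, by 0.95 in each. Over all times 5 of the 10 were not called between the lines. Among those called, *MTHFD1L* (0.76, SE 0.15) and *SHMT2* (0.42, SE 0.12) were higher in CD47- cells, and the directions of the rest are not given here. The interaction called 5 of the 10 with the more positive change in CD47- cells and 0 with the more negative.

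Of 12 eIF2 kinases and partners, 6 rose and 3 fell in WT and 5 rose and 5 fell in CD47- cells. *PPP1R15A*, the phosphatase subunit that reverses eIF2 phosphorylation, fell by 1.83 in WT (SE 0.084, adjusted p = 2.74e-09), against 1.00 in CD47- cells (SE 0.082, adjusted p = 2.49e-07). Its relative *PPP1R15B* fell by 0.80 in WT (SE 0.062). *EIF2B1*, a subunit of the exchange factor that phosphorylated eIF2 blocks, rose by 0.73 in WT (SE 0.080) and 0.68 in CD47- cells (SE 0.080), and *EIF2S1*, the subunit of eIF2 that is phosphorylated, rose by 0.72 in CD47- cells (SE 0.087). Over all times 2 of the 12 were higher in CD47- cells and 1 lower, the exchange factor subunits *EIF2B2* (0.54, SE 0.082) and *EIF2B5* (0.34, SE 0.11) and the amino acid sensing kinase *EIF2AK4* (-0.21, SE 0.085, adjusted p = 0.0496). The call of *EIF2AK4* was lost in limma (adjusted p = 0.0520), with RLE scaling (adjusted p = 0.0574), without the filter (adjusted p = 0.131) and in fits that left out single libraries (adjusted p up to 0.104). The 15 genes of the unfolded protein response encode chaperones and regulators of the endoplasmic reticulum. In WT 10 rose and 3 fell by 6 h, with a median of 1.24, led by *MANF* (2.19, SE 0.091), *HSP90B1* (2.17, SE 0.099) and *PDIA4* (1.88, SE 0.084), and in CD47- cells 2 rose and 8 fell, with a median of -0.22. *EDEM1* (-1.19, SE 0.069), *DNAJB9* (-0.84, SE 0.099) and *ATF6* (-0.41, SE 0.052) led the falls in CD47- cells. The interaction called 12 of the 15 with the more negative change in CD47- cells and 0 with the more positive, with a median of -1.40. Over all times 2 of the 15 were lower in CD47- cells and 0 higher, *HERPUD1* (-1.28, SE 0.19) and *HSP90B1* (-0.84, SE 0.32, adjusted p = 0.0429). The call of *HSP90B1* was lost with the replicate block (-0.45, adjusted p = 0.243), in limma (-0.43, adjusted p = 0.322) and in fits that left out single libraries (adjusted p up to 0.107). Of 7 glucocorticoid-induced genes, 1 rose and 5 fell in WT and 1 rose and 1 fell in CD47- cells, with 3 higher and 4 lower in CD47- cells over all times. *TSC22D3* fell by 1.66 in WT (SE 0.25) and 1.32 in CD47- cells (SE 0.22), and *PER1* fell by 0.82 in WT (SE 0.15). *FKBP5* rose by 0.55 in WT (SE 0.080) and 0.24 in CD47- cells (SE 0.082), and the latter call was lost without the filter (adjusted p = 0.140) and without any 1 of 3 CD47- libraries, CD3+CD28 or CD3+CD28+TSP1 of 1 h or CD3+CD28+TSP1 of 6 h (adjusted p up to 0.144). Over all times *ZBTB16* (-3.71, SE 0.30) and *FKBP5* (-0.67, SE 0.099) were lower and *SGK1* higher (1.34, SE 0.11) in CD47- cells.

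**Figure D5:**
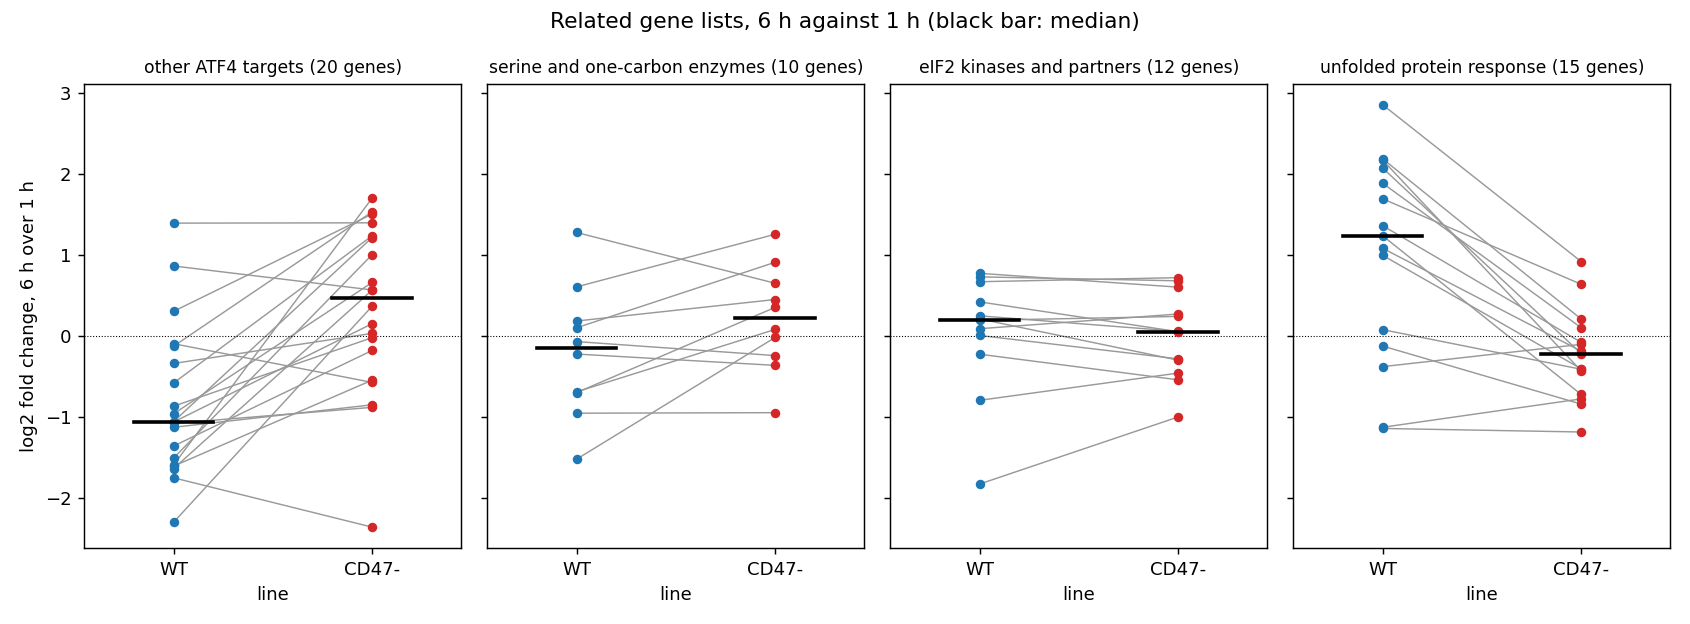
Log2 fold change of 6 h over 1 h (y axis) for the tested genes of 4 lists in WT (blue) and CD47- (red), each gene joined by a line and the median as a black bar. The medians go from -1.06 to 0.46 for the other ATF4 targets and from 1.24 to -0.22 for the unfolded protein response.

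How the 10 genes varied with each other differed between the lines, as a description over 10 libraries per line that share treatments and times. In WT, the log2 CPM of *ATF4* had a Pearson correlation of 0.96 with *ATF3*, 0.95 with *ASNS*, 0.94 with *PSAT1* and 0.92 with *PHGDH*, but 0.54 with *DDIT3* and 0.45 with *DDIT4*. In CD47- cells the same values for *ATF4* ranged from -0.39 to 0.48, and over the 9 libraries without the one that stood apart from -0.59 to 0.46. Those with *PHGDH* (0.28 against -0.15) and *PSAT1* (0.12 against -0.40) changed sign without it, as did that with *TRIB3* (-0.027 against 0.26). *PSAT1* had -0.97 with *TRIB3* and 0.85 with *PHGDH*, with and without that library. The genes with the pattern most like *PHGDH* in both lines, by the lower of the 2 correlations among 14090 genes, were *EIF4EBP1* (0.90), *MARS1* (0.89) and *SLC3A2* (0.88). Those most like *TRIB3* were *LGMN* (0.99), *E2F2* (0.97) and *TSPAN9* (0.96), and those most like *DDIT4* were *SUN2* (0.93), *NINL* (0.92) and *GTF3C5* (0.91).

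Of 90 listed isoforms of the 10 genes, 34 passed the filter, and 7 of these, in 6 genes, were called between the lines, all higher in CD47- cells, where 15.1% of 55450 isoforms were called. Single protein-coding isoforms held most counts of *TRIB3*, *CHAC1*, *SESN2*, *PSAT1* and *DDIT4*, at 95.8% to 100% of the counts of the gene in both lines. With matched pairs as a replicate block 7 were also called, 6 higher and 1 lower, with 5 of the first 7 among them, and without the filter 4 of the first 7 were called and no others. The main isoform of *TRIB3* (ENST00000217233.8) was higher by 1.80 (SE 0.23). An *ATF3* isoform with no defined coding sequence (ENST00000492118.2) was higher by 1.43 (SE 0.36, adjusted p = 0.00838), with 7.55 ± 2.63% of the *ATF3* counts in WT and 15.7 ± 4.90% in CD47- cells (SD, n = 10). By time that share was 5.63 ± 1.13% against 14.2 ± 1.39% at 1 h and 7.38 ± 2.19% against 21.0 ± 2.63% at 6 h, but 10.3 ± 2.405% against 12.4 ± 5.90% at 3 h, where the spreads overlapped. A *PHGDH* isoform annotated as a retained intron (ENST00000496756.2) was higher by 1.65 (SE 0.51, adjusted p = 0.0318), from 1.07 to 3.35 CPM over all times. Its share of the *PHGDH* counts was 0.88 ± 0.78% in WT and 4.66 ± 0.69% in CD47- cells at 1 h, and the spreads overlapped at 3 h (0.79 ± 0.093% and 1.16 ± 0.51%) and 6 h (0.81 ± 0.71% and 1.23 ± 0.35%). That call was lost with the block (adjusted p = 0.0510), without the filter (adjusted p = 0.0621) and in 9 of the 20 fits that each left out a library. The main isoform of *CHAC1* (ENST00000617768.5, 0.84, adjusted p = 0.0440) was lost with the block (adjusted p = 0.0931), without the filter (adjusted p = 0.0776) and in 13 of those fits. That of *SESN2* (ENST00000253063.4, 0.54, adjusted p = 0.0374) was lost without the filter (adjusted p = 0.0851) and in 13 of the fits. The block added a *PSAT1* isoform (ENST00000347159.6, 1.15, adjusted p = 0.0169), higher in CD47- cells, and a *DDIT3* isoform (ENST00000552740.5, -0.78, adjusted p = 0.0217), lower in CD47- cells. Isoform counts are estimates that divide shared reads among isoforms.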

How the data were processed

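mRNA of 20 libraries was counted by the authors, per the labels and the study's methods: reads were trimmed with Cutadapt 1.18, aligned to GRCh38 with STAR 2.4.2a in 2 passes and quantified with RSEM 1.3.3 on GENCODE version 36. The deposited values are RSEM expected counts per gene and isoform, which need not be whole, and were rounded here. RSEM divides reads that match several genes or isoforms among them. The strand setting is not given in the sources used here. Per file, 2 columns of no sample of this series were left out.

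The 10 genes and the 5 lists were chosen with earlier results of these data known. From each list, the text names up to 3 called genes with the smallest p in the line comparison and in each 6 h comparison, and for *DDIT4*, *TRIB3* and *PHGDH* the 3 genes most like them. A gene that the rule names in the line comparison is not reported here.

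Genes were filtered with filterByExpr (minimum count 10, minimum total 15), scaled by TMM and tested in edgeR 4.0.16 with the quasi-likelihood test. The line comparison had line as its only term (18 residual degrees of freedom). All others came from 1 fit with line by treatment terms and time within line (8 residual degrees of freedom), in which libraries of the same treatment at different times and of the same time under different treatments stand in for replicates. The untreated libraries have terms of their own in it and do not enter its comparisons, but they do enter the fits with the replicate block and without treatment terms. P-values were adjusted over all 16327 genes, or 55450 isoforms, by the Benjamini-Hochberg method with a threshold of 0.05. TPM used transcript lengths of GENCODE version 44, which covered at least 99.1% of the counts. WT and CD47- libraries of the same treatment and time, 10 pairs, deviated together from their line means (correlation from 0.12 to 0.69, median 0.55), and blocked values are given where they change a call. In simulated counts, the line test recovered 72% of genes changed 2-fold and 94% of those changed 4-fold, and the interaction at 6 h 52% and 84%. The simulated libraries were drawn independently, unlike these pairs, so recovery in these data may differ. These shares do not give the rate of false calls. Start sites are those of RefSeq on GRCh38.p14, and gene annotation at the sites is from GENCODE version 44. No pair of libraries of the same line, of 90 compared, agreed within sampling noise. Alternatives were DESeq2 1.42.0, limma 3.58.1 with quantile normalization, RLE scaling, no filter, no treatment terms, the replicate block and leaving out each library. Correlations without the library that stood apart and the block over the treated libraries alone were added after the data were seen. For *ATF4* the 4 listed pseudogenes each held under 0.03% of its counts. A noncoding gene (ENSG00000284707) overlaps the span of *ASNS* on the same strand. It had 7.61% of the counts of *ASNS* summed over the 20 libraries, and the part of shared reads was not tested.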

Additional observations from a re-analysis of the deposited data

Results flagged for a closer look

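The change from 1 h differed between the lines by the interaction term for 4 of the 10 genes at 3 h, *ATF3* (1.61), *CHAC1* (1.75), *SESN2* (1.31) and *PSAT1* (0.66), each on the log2 scale and more positive in CD47- cells. At 6 h it differed for 9, more positive in CD47- cells for *ATF4* (0.95), *ATF3* (2.37), *CHAC1* (2.73), *SESN2* (1.47), *ASNS* (1.17), *PHGDH* (1.23) and *PSAT1* (1.77), and more negative for *DDIT3* (-0.91) and *TRIB3* (-0.58).

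Of 40 groups of libraries examined with Dixon's test at the 95% level, 3 held a library far from the others, where chance alone gives about 1 in 20. *ATF4* was at 436 CPM in the CD47- library given CD3+CD28+TSP1 for 3 h, against 640 CPM in the next lowest of the 10 CD47- libraries. *CHAC1* was at 18.6 CPM in the WT library given CD3+CD28+TSP1 for 1 h, against 14.5 CPM in the next. *PHGDH* was at 137 CPM in the untreated WT library, against 154 CPM in the next.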

How the results depend on the processing

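Of the log2 fold changes of the 10 genes, 99 of 100 kept their direction and side of the threshold in DESeq2, 93 in limma with quantile normalization, 100 with RLE scaling, 93 without the filter, 36 of 40 with the replicate block of matched pairs, 29 of 30 with the block over the treated libraries alone and 53 of 60 without treatment terms. Mean TPM was not among these settings, and in it *PHGDH* at 1 and 3 h and *SESN2* at 1 h were higher in CD47- cells. Within the settings no gene that was called changed direction. Directions turned only for values near 0, each missing the threshold before and after: *DDIT4* at 1 h between the lines with the replicate block, which also brings in the untreated pair (0.11, but -0.032 with the block over the treated libraries alone), *ATF4* between the lines at 3 h (0.16) and at 6 h in CD47- cells (0.0035) in limma, and *PHGDH* in CD47- cells (-0.015) and *DDIT3* in the interaction (-0.022) at 3 h without treatment terms. Leaving out each library in turn gave ranges across 0 for *DDIT4* between the lines overall (-0.024 to 0.10) and at 1 h (-0.16 to 0.048), *DDIT3* at 1 h (-0.27 to 0.067) and 3 h (-0.21 to 0.14), *ATF4* at 3 h (-0.21 to 0.12), *PHGDH* at 3 h (-0.022 to 0.088) and *ATF4* at 6 h (-0.14 to 0.061) in CD47- cells, and *DDIT3* in the 3 h interaction (-0.13 to 0.26). Of the 10 genes, 3 to 6 were called at 3 h in CD47- cells. Over all genes, the 3 h interaction called 1069 in DESeq2 and 1397 without the filter, against 698, and 169 to 1066 with a library left out, and the 6 h interaction 1459 to 4273. CD3+CD28+TSP1 against TSP1 in WT called 54 genes in DESeq2, 28 in limma, 201 without the filter and 0 to 42 with a library left out, against 15. Without the filter, CD3+CD28+TSP1 against CD3+CD28 called 84 genes in WT and 401 in CD47- cells, and CD3+CD28+TSP1 against TSP1 called 538 in CD47- cells, against 0 for each. For CD3+CD28+TSP1 against CD3+CD28, DESeq2 called 1 in WT, and leaving out a library gave 0 to 1 in CD47- cells. The causes were not tested. *CHAC1* and *ATF3* had the lowest counts of the 10 genes, 104 and 139 in a WT library, and the SEs between the lines by time were largest for *CHAC1* (0.16 to 0.17) and *DDIT3* (0.15).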
